A study of Gallus gallus with 4 samples.

Results

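The genes described here are 149 chick genes that the study placed under FoxO signaling or stress response. They were chosen from the 1251 genes of the exon list the authors deposited, which holds exons they called different between alcohol and saline. A gene was taken where its label was FoxO, where its label contained stress, or both, and where its only further label was the group of mTOR, autophagy and nitrogen metabolism. Of the 397 listed genes with either label, 155 met this rule, and 6 of those were left out because they stand in the main tables of the study. The remaining genes were 133 with a stress label alone, 11 with a FoxO label alone and 5 with both, of 24513 gene identifiers in the count table. 23 of them also carried the mTOR label. Because the list came from the same contrast of alcohol and saline, every alcohol value below is a description of genes already picked for a difference, and no test is drawn from it. The p-values of that list were not used here, so the genes just inside and just outside its limit are not set side by side.

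FoxO proteins are transcription factors that insulin and growth factor signaling keeps out of the nucleus through Akt. When that signal falls or oxidative stress rises, they enter the nucleus and switch on genes for antioxidant defence, cell cycle arrest and apoptosis. The label of the study was wider than that and also took in insulin, TGF-beta, Wnt, Notch and phosphatidylinositol signaling. Its stress label joined the folding and quality control of proteins in the endoplasmic reticulum, the lysosome and phagosome, the decay and surveillance of mRNA, p53 and apoptosis, and innate immune sensing. Cells of the cranial neural folds, which give rise to the brain and the cranial neural crest, are known to be prone to apoptosis after alcohol.

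The samples were cranial headfolds of Special black chick embryos at the neural fold stage, incubated for 27 hr. One group received 0.43 mmol ethanol (52 mM for 90 min) and the other isotonic saline, and headfolds pooled by 23 were collected 6 hr after the exposure began. Each group was sequenced in 2 lanes with 75 bp reads. No run held lanes of both groups, so the effects of alcohol and of the run cannot be told apart in the values below. The labels do not say whether 2 lanes of a group came from 2 pools, and that spread may be technical. The study's tables describe the counts of each group as those of both pooled samples. With saline as 1 library, the spread behind the edgeR calls came from the 2 alcohol lanes alone.

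The lanes held 20951322 and 20861872 counts (saline) and 15388474 and 16991925 counts (alcohol). Mitochondrial genes took 44.2% of the counts in each saline lane, 33.3% in the first alcohol lane and 32.9% in the second. The saline lanes differed by little more than sampling noise, with a chi-square per degree of freedom of 1.04 over the genes, and were treated as 1 summed library. The alcohol lanes differed by more (5.68) and stayed 2 libraries. Over the 149 genes the chi-square per gene was 1.03 between the saline lanes and 6.78 between the alcohol lanes. The files and references used here pair none of the 149 identifiers with a gene symbol. Single genes are therefore described by identifier for 4 of them only, chosen by a rule on their exon values, and the markers of headfold cell types could not be checked.

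In saline the 149 genes were mostly well above the level of a typical gene. Their levels ran from 1.14 to 161 CPM per kilobase of summed exon length (CPM being counts scaled to the library total), with a median of 13.8, against a median of 3.91 over the 18093 genes with at least 10 counts. 131 of the 149 lay above that median. The middle of the group reached from 7.49 at the lower quartile to 38.2 at the upper. The genes were also longer and more divided than most. Their median summed exon length was 2559 bases and their median number of exon parts 17, against 1739 bases and 8 parts over all 18093 genes. Exon parts are the pieces into which all annotated exon boundaries divide the exons of a gene. A gene could enter the list only with exons that were counted well enough to be called, and the part that this played in level and length was not tested. Among the 13545 genes that had at least 2 countable parts, the medians were 6.11 CPM per kilobase, 1962 bases and 10 parts.

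The stress genes and the FoxO genes overlapped in level. The stress genes had a median of 15.6 CPM per kilobase (range 1.14 to 161), the FoxO genes 11.8 (3.05 to 55.6) and the 5 genes with both labels 3.36 (2.26 to 9.84). The genes lay on 25 chromosomes or scaffolds of Gallus gallus 5.0. Chromosome 1 held 16, chromosome 4 held 14 and the sex chromosome Z held 12, which is 8.05% of the group against 4.13% of all 18093 genes.

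Under TMM scaling the median change of these genes after alcohol was near that of all genes, and single genes moved both ways. The median gene-level change, as log2 of alcohol over saline after TMM scaling, was 0.00078, against 0.012 over all genes, and the values ran from -0.84 to 1.30. 133 of the 149 genes (89.3%) lay within 0.5 of zero on the log2 scale, 12 above 0.5 and 4 below -0.5. Of all genes 65.8% lay within 0.5. The 149 genes had higher saline levels than most. Their alcohol lanes also differed by less, by a median of 0.12 on the log2 scale against 0.18 over all genes. The part of level and lane spread in this gap was not tested. By edgeR's quasi-likelihood test at a false discovery rate of 0.1, 18 of the genes (12.1%) were higher and 14 (9.40%) lower. The same test called 15.5% of all genes higher and 11.6% lower. In 51 genes both alcohol lanes lay above both saline lanes and in 57 both lay below, against 35.6% and 33.3% of all genes. The other 41 genes overlapped. In bulk tissue, fewer cells of a type and less RNA per cell cannot be told apart.

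The split of calls depended on the scaling. With library size alone 84 genes were higher and 3 lower, where 39.9% and 3.33% of all genes were called. With library size less the mitochondrial counts 23 were higher and 3 lower, where 18.9% and 7.25% of all genes were called. These scalings moved the median of all genes to 0.36 and 0.10 on the log2 scale, and the median of the 149 genes to 0.36 and 0.094. DESeq2 called 8 higher and 6 lower (5.37% and 4.03%), where it called 5.39% and 4.26% of all genes. With every lane as its own library edgeR called 37 higher and 36 lower, where 22.8% and 20.0% of all genes were called.

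The genes called higher and those called lower differed in their saline level. The 18 higher genes had a median saline level of 5.63 CPM per kilobase and changes of 0.38 to 1.30 on the log2 scale. The 14 lower genes had a median of 60.6 and changes of -0.84 to -0.32. The genes with no call lay between, at 15.6. Across the 149 genes the rank correlation of log2 change and saline level was -0.55 (Spearman), against -0.29 across all 18093 genes. The saline counts enter both measures, genes are not independent replicates, and the share of mitochondrial counts and the depth also differed between the groups, so their part in this relation was not tested.

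**Figure D1:**
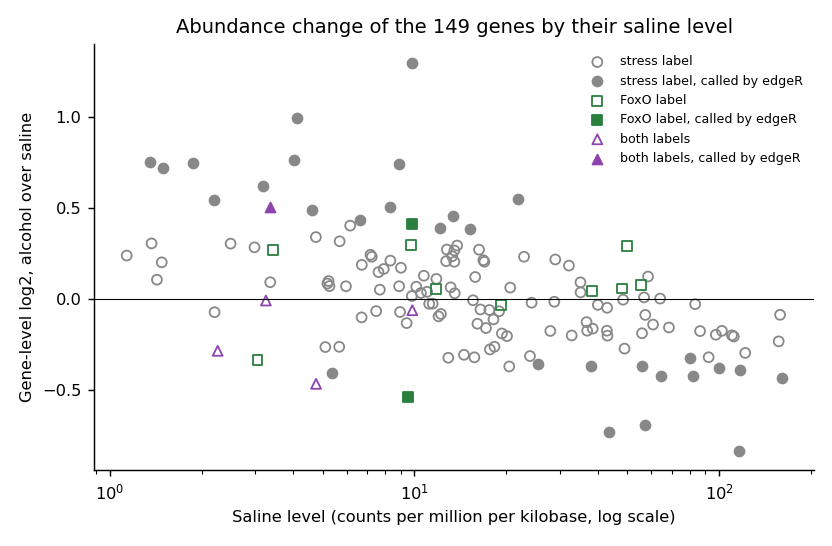
Gene-level change (log2 of alcohol over saline, TMM scaling) of the 149 genes against their saline level (CPM per kilobase, log axis), with filled symbols for genes called by edgeR. The rises called sit mostly at low saline levels (median 5.63) and the falls called at high ones (median 60.6), under TMM scaling; with library size alone 84 genes were called higher and 3 lower.

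By label, 16 stress genes were called higher and 13 lower, 1 FoxO gene higher and 1 lower, and 1 gene with both labels higher. Of all genes, 15.5% were called higher and 11.6% lower. The median log2 change was -0.0052 for the stress genes, 0.06 for the FoxO genes and -0.06 for the genes with both labels. The FoxO genes ran from -0.54 to 0.41. In 8 of the 11 both alcohol lanes lay above both saline lanes, and in 2 both lay below. For the 133 stress genes these counts were 42 and 53, and for the 5 genes with both labels 1 and 2. Of all genes 35.6% lay above in this way and 33.3% below. The 23 genes that also carried the mTOR label had a median of 0.05 (3 higher, 1 lower). The differences between labels were not tested, since the genes of each label were picked on these lanes. The alcohol lanes themselves differed by a median of 0.12 on the log2 scale in these genes, against 0.05 between the saline lanes. In 52 genes the gap between the alcohol lanes was larger than the change of the gene between the groups, and 106 genes had the higher level in the first alcohol lane.

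Where the reads fell inside the genes also moved, which is the measure on which the genes had been picked. The 149 genes had 2769 exon parts, of which 1821 had enough counts to be tested for usage. The other 948 included 320 with no count in any lane. Usage, as edgeR measures it, is the change of a part set against the change of its whole gene, that part included. A gene that rises as a whole thus shows no change in usage. A part that holds most of its gene's counts stays near 0 on this measure, while parts with few counts can move far. The study itself had put 432 of these parts on its list. edgeR's usage test called 193 of the 1821 parts, of which 11 (0.604%) were lower after alcohol and all others (9.99%) higher, where it called 0.511% of all parts tested lower and 4.36% higher. The rule picked these genes on this measure, so nothing is read from the gap to the background. The median usage change was 0.48 on the log2 scale, against 0.21 over all parts. 1357 of the 1821 parts (74.5%) had a higher usage, where 64.1% of all parts tested did. The called rises ran from 0.70 to 6.11 and the called falls from -3.18 to -0.52 on the log2 scale.

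The direction of the calls depended on the model as well. The model of DEXSeq, which the study used, was refitted here with the likelihood ratio test of DESeq2 and with saline summed. This refit called 5 parts higher and 11 lower (0.275% and 0.604%), where 0.272% and 0.168% of all parts were called. It was not a rerun of the study's own fit, whose list, with a limit of 0.1 on the adjusted p, held 432 of these parts. The cause of the gap between 432 and 16 parts was not tested. With that model and every lane taken as its own library, 83 were called higher and 55 lower (4.56% and 3.02%), where 2.02% and 1.87% of all parts were called. Of these 138 parts, 86 were among the 193 that edgeR called. The median usage change was nearly the same in all 3 fits, at 0.48, 0.50 and 0.50 on the log2 scale. When a smoothed trend over distance from the 3' end was taken off, the median was 0.14 and 29 parts were called higher and 18 lower, of which 35 were among the 193. That fit called 0.613% of all parts higher and 0.948% lower. With every lane as its own library edgeR called 306 parts higher and 35 lower, where 8.13% and 1.55% of all parts were called. Without a filter on counts it called 114 higher and 3 lower, where 1.51% and 0.186% of all parts were called, and with library size alone 155 higher and 6 lower, where 3.43% and 0.361% were.

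The calls were spread over many genes. 78 genes had at least 1 part called higher, 10 had a part called lower, 5 had both kinds and 66 had no called part. The same count was not made over all genes. These genes had a median of 10 tested parts, against 4 over all genes, and were picked on usage, so nothing is read from their number. No gene had more than 12 parts called higher. The FoxO genes held 14 of the called rises among 139 parts tested, and the stress genes held 168 among 1641. All 11 called falls lay in stress genes, but these held 1641 of the 1821 parts tested, so no difference between the labels is read from this. The median usage change was 0.50 on the log2 scale for the FoxO genes and 0.48 for the stress genes.

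The direction changed along the gene. The parts of each gene were ordered from the 5' end and split into 5 segments of equal number, so that segment 5 lies at the 3' end. The median usage change of the parts was 0.60 in segment 1, 0.68 in segment 2, 0.71 in segment 3 and 0.49 in segment 4, and fell to -0.04 in segment 5, all on the log2 scale. The same medians over the parts of all genes were 0.38, 0.42, 0.40, 0.24 and -0.04. The step from segments 1 to 4 to segment 5 was thus -0.66 in these genes and -0.39 over all genes. Since the genes were picked on usage in these lanes, nothing is read from that gap. In 129 of the 142 genes with tested parts on both sides, the median change was lower in segment 5 than before it. This count was not made over all genes, and it is not read as a trait of these genes. The called rises numbered 25, 46, 56, 45 and 10 from segment 1 to segment 5. As shares of the parts tested there, these were 10.5%, 13.3%, 15.3%, 10.3% and 2.31%. Over the parts of all genes the shares also dropped at the 3' end, at 5.92%, 6.83%, 6.04%, 4.02% and 1.08%. Of the 11 called falls, 8 lay in segment 5.

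The parts the study had listed followed the same order. Of the 432 listed parts, 292 had a higher usage and 140 a lower one. Of the 140 lower parts, 123 lay in segment 5, and of the 292 higher parts, 31 did. The 1389 unlisted parts of these genes also leaned upward, with 1065 higher and 324 lower. Their median was 0.45 on the log2 scale, against 0.82 for the listed parts. In segment 5 alone the unlisted parts had a median of 0.12. Of the tested parts of all genes 64.1% were higher, with a median of 0.21. 93 genes had listed parts of both directions, 21 had only higher and 35 only lower ones. 50 genes stood on the list with 1 part and 27 with 5 or more, up to 17.

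**Figure D2:**
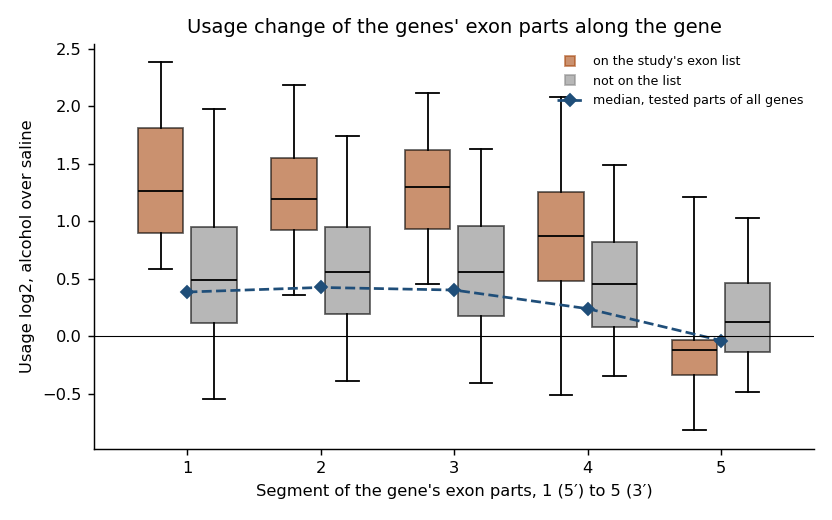
Usage change of the genes' tested exon parts (log2 of alcohol over saline) by segment of the gene from the 5' to the 3' end, for parts on the study's list and parts that are not; boxes span the quartiles with the median, whiskers the percentiles 5 to 95, and diamonds give the median over the parts of all genes. The medians of listed and unlisted parts lie above 0 in segments 1 to 4. In segment 5 that of the listed parts is below 0 and that of the unlisted parts above it, at 0.12.

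The parts near the 3' end also held most of the reads. The median number of counts over the lanes was 162 for a tested part in segment 5 and 26 for one in segment 1. When the 1821 parts were split by their counts, the median usage change was 0.70 for the parts with 10 to 23 counts, 0.71 for those with 24 to 51, 0.52 for those with 52 to 139 and 0.03 for those with 140 to 20645, on the log2 scale. 50.3% of the parts in the last of these classes lay in segment 5, against 9.91% in the first. Position and counts thus moved together. The measure itself also holds a part with most of its gene's counts near 0. The separate parts of position, counts and measure in the usage change were not tested.

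Gene by gene, the part with the most counts usually held more than all the others together. It was in segment 5 in 126 of the 149 genes and had a median length of 607 bases, where the median part had 121. Its median share of the counts of its gene was 70.8% and 71.5% in the saline lanes and 63.7% and 63.2% in the alcohol lanes. The usage of this part was lower after alcohol in 136 genes, with a median of -0.10 on the log2 scale. A value near 0 is built into the measure here, since the part makes up much of the gene it is set against. Of these 149 parts, 115 were on the list of the study. The other 1672 tested parts had a median of 0.55, and 1344 of them were higher. Of the tested parts of all genes, those with the most counts included, 64.1% were higher.

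The share of counts in segment 5 was lower in both alcohol lanes than in both saline lanes in 132 of the 147 genes with at least 5 parts and 10 counts in each lane. It was higher in 3 genes and overlapped in 12. Among all 10738 genes of that kind the share was lower in 59.9% and higher in 6.53%. The 149 genes were picked on usage in these same lanes and had higher saline levels than most, so nothing is read from this gap. The median share over the 149 genes was 81.9% and 81.1% in the saline lanes and 72.6% and 69.8% in the alcohol lanes. The median difference between the groups was -5.54 percentage points, and single genes ran from -25.7 to 23.0.

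Summed over the 149 genes, segment 5 held 9149 and 9128 TMM-scaled CPM in the saline lanes and 8307 and 7914 in the alcohol lanes. The other segments held 2914 and 2894 in the saline lanes and 3314 and 3275 in the alcohol lanes. Under TMM scaling the alcohol lanes were thus below the saline lanes at the 3' end, at 0.888 of the saline mean. They were above them elsewhere, at 1.13 of it, with no overlap in either sum. The total was 0.947 of the saline mean under that scaling. As a share of all counts of a lane the total went the other way, at 1.07% and 1.06% in saline and 1.31% and 1.27% in alcohol. The direction of the total, and of the segment 5 sum, thus depended on the scaling. The share of mitochondrial counts also differed between the groups, and its part in these sums was not tested.

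**Figure D3:**
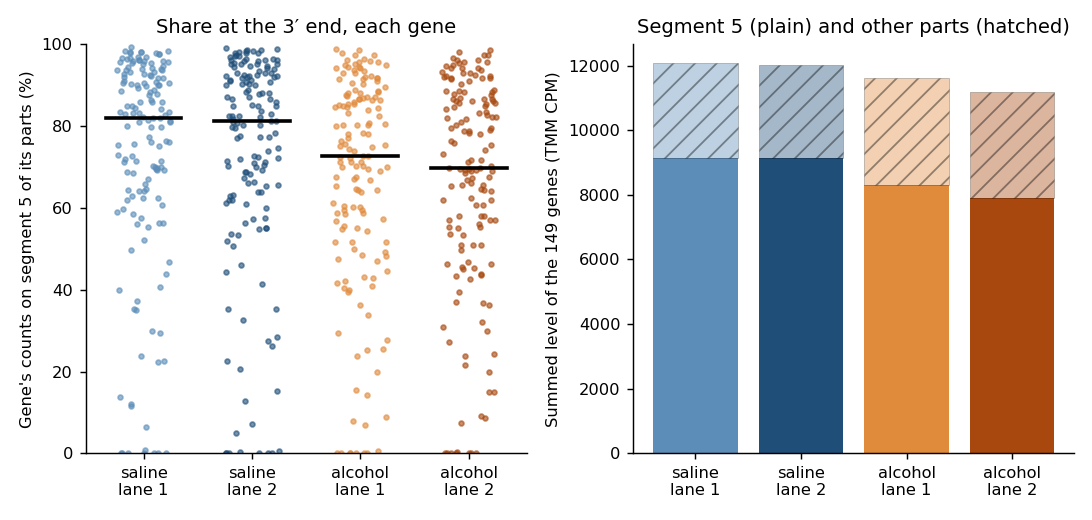
Left, share of each gene's counts (%) that fell on the last of 5 segments of its exon parts in each lane, 1 point per gene and a bar at the median of the 149 genes; right, summed level of the 149 genes (TMM-scaled CPM) split into segment 5 and the other parts. The medians drop from 81.9% and 81.1% in saline to 72.6% and 69.8% in alcohol while the hatched segment grows.

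The 4 genes shown in detail hold the largest called usage rises and falls among parts with at least 100 counts. All 4 carry the stress label. The counts given for their parts are raw, and the alcohol lanes held fewer counts in all than the saline lanes. The largest rise was in the combined identifier ENSGALG00000003293+ENSGALG00000003302 (chr11:2563345-2592411, plus strand, 33 exon parts), which joins overlapping genes whose counts cannot be told apart. Its part 2 (chr11:2565199-2565456) held 10 and 15 counts in saline and 57 and 50 in alcohol, so that the groups did not overlap. Its usage changed by 2.07 ± 0.35 (SE) on the log2 scale, and 2.11 with the model of DEXSeq. The total of the gene hardly moved, at 88.1 and 89.1 TMM-scaled CPM in saline and 94.1 and 88.2 in alcohol (log2 0.04 ± 0.15, SE).

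The rise in this gene was not limited to part 2. Parts 1 to 21 together held 238 and 253 counts in saline and 521 and 501 in alcohol, and 19 of its 21 tested parts had a higher usage. The long part 22 (1868 bases) held 1391 and 1388 counts in saline and 1107 and 1194 in alcohol. Its share of the gene was 85.2% and 84.3% in saline and 67.9% and 70.3% in alcohol. The parts after it, 23 to 33, held 3 and 6 counts in saline and 2 and 4 in alcohol. The counts thus stopped at part 22, which here lies in segment 4 and carries the reads that segment 5 carries in most of these genes.

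ENSGALG00000017239 (chr1:188310798-188327047, plus strand, 10 exon parts) showed the same form in a gene with more counts. Its part 5 (chr1:188320394-188320549) held 9 and 22 counts in saline and 52 and 47 in alcohol, a usage change of 1.71 ± 0.34 (SE) on the log2 scale. Parts 1 to 8 together held 97 and 87 counts in saline and 212 and 218 in alcohol, with no overlap. Part 9 (1051 bases) held 3800 and 3795 counts in saline and 3574 and 3519 in alcohol, or 97.5% and 97.8% of the gene in saline and 94.4% and 94.1% in alcohol. The gene as a whole stood at 210.3 and 210.0 TMM-scaled CPM in saline and at 218.6 and 194.1 in alcohol, where the groups overlapped (log2 -0.03 ± 0.14, SE). A more than doubled count in its first parts was thus too small to move the total.

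ENSGALG00000004769 (chr6:11945566-11961894, minus strand, 22 exon parts) held the largest called usage fall among parts with at least 100 counts and was also the gene with the largest rise in abundance among the 149. It stood at 18.6 and 17.1 TMM-scaled CPM in saline and at 45.6 and 42.3 in alcohol, with a log2 change of 1.30 ± 0.18 (SE) and no overlap. The change was 1.65 with library size alone, and 1.23 and 1.35 without the first or the second alcohol lane. On the minus strand, part 1 lies at the 3' end. It held 4 and 4 counts in saline and 1 and 1 in alcohol, and was also called lower in usage. Part 2 (chr6:11945645-11945757) held 78 and 74 counts in saline and 86 and 93 in alcohol. It thus rose by less than part 3, and its usage change was -1.05 ± 0.25 (SE) on the log2 scale.

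The next part of this gene, part 3, held 69 and 52 counts in saline and 274 and 236 in alcohol, a usage change of 0.80 ± 0.24 (SE) on the log2 scale. Without parts 1 and 2 the gene held 263 and 238 counts in saline and 703 and 720 in alcohol. Its rise was thus not carried by its last 2 parts. Part 3 gained the most counts, and part 16, in segment 2, held 61 and 83 in saline and 163 and 153 in alcohol. Of the 22 parts, 7 held no counts in any lane. Of its 11 tested parts, 5 had a higher usage and 6 a lower one, which sets it apart from the other 3 genes, where most parts were higher.

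The fall in ENSGALG00000007716+ENSGALG00000040030+ENSGALG00000007659 (chr24:5639319-5682103, minus strand, 60 exon parts) was less firm. This identifier joins 3 overlapping genes. Its part 40 (chr24:5661323-5661463) held 39 and 48 counts in saline and 12 and 21 in alcohol, a usage change of -1.02 ± 0.35 (SE) on the log2 scale. The part was on the list of the study. It was called by edgeR, also with every lane as its own library, with the trend taken off and with at least 10 counts in every library. It was not called by edgeR with library size alone or by the refit of the model of DEXSeq, with saline summed or with every lane. It lies in segment 2, away from the 3' end, and 39 of the 49 tested parts of this identifier had a higher usage.

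The same identifier had 10 parts called higher, and the part with the most counts, part 11 (1253 bases), held 2817 and 2928 counts in saline and 1666 and 2086 in alcohol. That part made up 52.2% and 53.3% of the counts in saline and 43.3% and 45.5% in alcohol. The total was lower after alcohol, at 291.0 and 297.4 TMM-scaled CPM in saline and 222.4 and 238.0 in alcohol (log2 -0.36 ± 0.14, SE). With library size alone the log2 change was -0.0026, against a shift of 0.36 in the median of all genes.

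**Figure D4:**
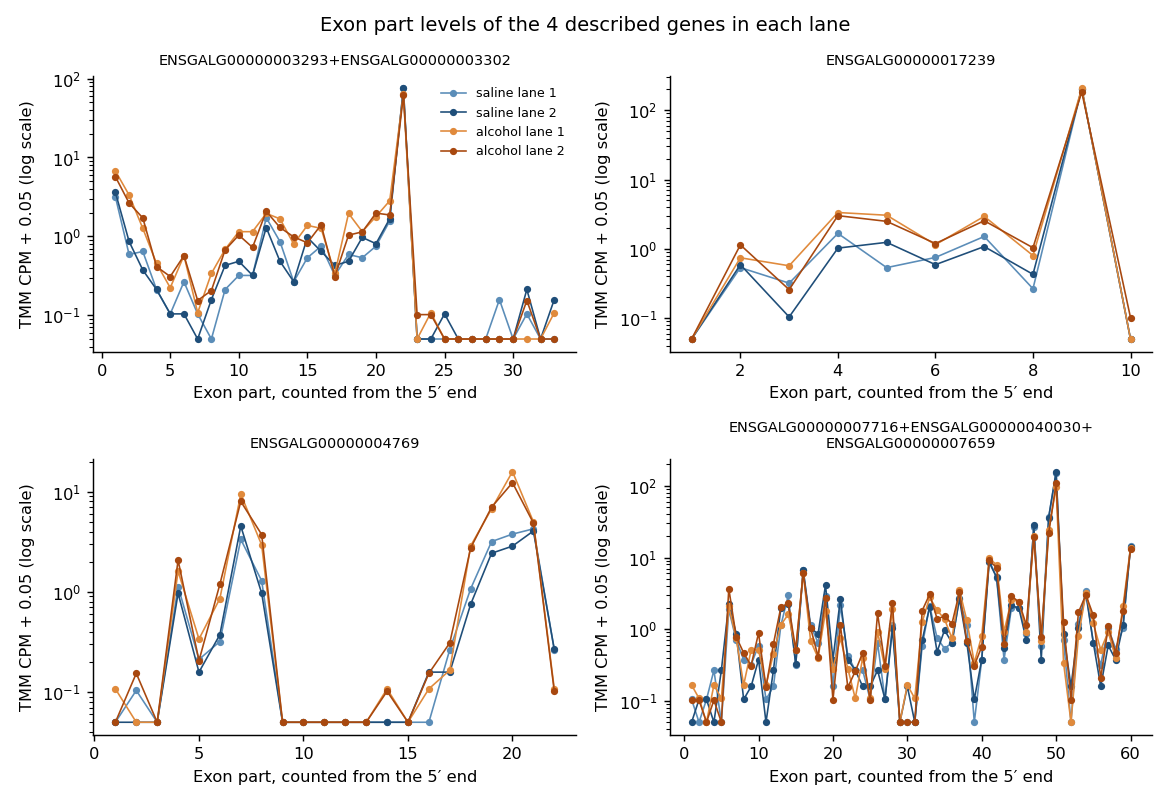
Level of every exon part (TMM-scaled CPM plus 0.05, log axis) of the 4 described genes in each lane, in order from the 5' end. In both upper genes the alcohol lanes mostly lie above the saline lanes before the tallest part, which holds 84.3% to 97.8% of the saline counts. In ENSGALG00000004769 the alcohol lanes are higher in most of its tested parts.

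For comparison, 16 of the genes that the study names under these labels were measured in the same fits. They are a selection by hand and not the whole set: other named genes, such as the tubulins, ITGB1, OGT and GAPDH, were not measured for this comparison. ENO1 and PPP1CB carry both labels and are counted here with the FoxO genes. Of the 16, only 6 carry labels that meet the rule for the 149 genes, and all 6 are stress genes. The study had chosen the genes on these samples, so they are not independent evidence of a direction. Their median saline level was far above that of the 149 genes, at 212 against 13.8 CPM per kilobase. The ranges overlapped, at 41.1 to 855 in the named genes and 1.14 to 161 in the 149. At the gene level edgeR called 3 of them lower and 0 higher, also 0 higher at an unadjusted p under 0.05. It called 11.6% of all genes lower and 15.5% higher. DESeq2 called 1 lower and 0 higher, where it called 4.26% and 5.39% of all genes. The 3 genes that edgeR called carry the FoxO label, and ENO1 among them the stress label too. With library size alone the counts turned to 9 higher and 0 lower, where 39.9% and 3.33% of all genes were called. With library size less the mitochondrial counts they turned to 0 higher and 1 lower (ENO1), where 18.9% and 7.25% of all genes were called. In usage, edgeR called 63 of their 190 tested parts higher (33.2%) and 0 lower, also 0 lower at an unadjusted p under 0.05, beside 4.36% and 0.511% of all parts. The study had picked these genes on exon usage, so nothing is read from that gap. The refit of the model of DEXSeq called 13 higher and 2 lower, where it called 0.272% and 0.168% of all parts. With every lane as its own library it called 49 higher and 7 lower, where it called 2.02% and 1.87% of all parts.

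Among the 8 FoxO genes, the largest fall was in ENO1, a glycolytic enolase, with 1810 and 1783 TMM-scaled CPM in saline and 1362 and 1272 in alcohol. Its log2 change was -0.45 ± 0.12 (SE), and -0.10 with library size alone. PKM, the last enzyme of glycolysis, stood at 1772 and 1819 in saline and at 1304 and 1585 in alcohol (log2 -0.32 ± 0.13, SE), and turned to 0.04 with library size alone. YWHAE, a 14-3-3 protein of the family that holds phosphorylated FoxO in the cytoplasm, stood at 1210 and 1192 in saline and at 990.5 and 935.2 in alcohol (log2 -0.32 ± 0.13, SE), and turned to 0.03 with library size alone. These lanes did not overlap in any of the 3 genes under TMM scaling. The other 14-3-3 genes of the list, YWHAB and YWHAQ, had log2 values of -0.07 and -0.16 and were not called. SLC2A1, a glucose transporter, had -0.22, the phosphatase subunit PPP1CB -0.03 and the receptor phosphatase PTPRF -0.02, with no call.

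Under TMM scaling edgeR called 0 of the 8 genes with the stress label and no FoxO label at the gene level. It also called 0 at an unadjusted p under 0.05, and DESeq2 called 0. HSPA5, the main chaperone of the endoplasmic reticulum and a marker of the unfolded protein response, stood at 962.4 and 969.8 TMM-scaled CPM in saline and at 1009 and 962.1 in alcohol (log2 0.03 ± 0.13, SE). The disulfide isomerases and their relatives in that compartment had log2 values of -0.09 (PDIA6), -0.0067 (TXNDC5) and -0.00061 (ERP29). The cytosolic chaperone HSP90AB1 had -0.22 and the mitochondrial chaperone HSPD1 -0.18. The RNA helicase DDX3X had 0.09 and the small GTPase CDC42 0.02. With library size alone all 8 were above 0 and 6 of them were called higher, in a scaling that moved the median of all genes to 0.36 and called 39.9% of them higher.

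The named genes showed the 3' pattern too. The study had picked them on exon usage in the same lanes, so this is not a separate observation of it. In HSPA5 the part at the 3' end (885 bases) held 92.5% and 91.7% of the counts in saline and 87.4% and 86.8% in alcohol, and the median usage change of the parts in segments 1 to 4 was 0.69 on the log2 scale. In PTPRF, whose last part has 4007 bases, that part held 90.7% and 90.5% in saline and 82.6% and 80.3% in alcohol, and 13 of its 34 tested parts were called higher in usage. PDIA6 had 7 of 13 parts called higher, PKM 7 of 16, HSPD1 and ENO1 5 each, and YWHAQ had no call. The share of counts in segment 5 was lower in both alcohol lanes in 14 of the 16 genes. Among all 10738 genes with at least 5 parts and 10 counts in each lane it was lower in 59.9%. In the remaining named genes, YWHAE and CDC42, the part with the most counts lay in segment 4.

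**Figure D5:**
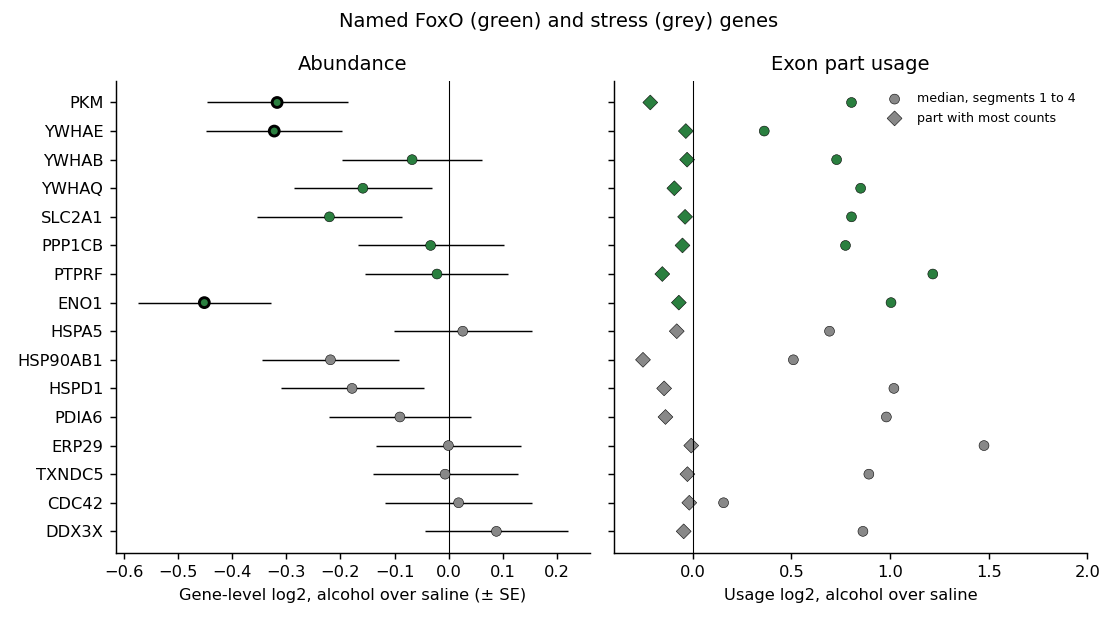
Named genes of the FoxO (green) and stress (grey) labels. Left, gene-level log2 of alcohol over saline with its SE under TMM scaling, with heavy outlines for genes called by edgeR. Those are PKM, YWHAE and ENO1, all below 0. With library size alone PKM and YWHAE are at 0.04 and 0.03, and 9 of the 16 genes are called higher, where 39.9% of all genes are. Right, usage log2 of the part with the most counts (diamonds) and the median of the parts in segments 1 to 4 (circles). That median lies above the diamond in all 16 genes. The genes were picked on exon usage in these lanes, and the measure holds a part with most of its gene's counts near 0, so nothing is read from this.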

How the data were processed

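RNA of chick cranial headfolds was sequenced in 2 saline and 2 alcohol lanes. Reads were aligned by the authors to Gallus gallus 5.0 with Bowtie2, and the deposited counts are raw counts of read pairs per exon part from featureCounts 1.5.2 (Subread), without strand. Overlapping genes carry combined identifiers (7 of the 149), and antisense genes cannot be told apart.

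The authors also deposited an exon list of 6856 rows. Per the file headers it holds normalized counts (a signal), exon usage coefficients (a score), log2 fold changes and p-values from DEXSeq, with pathway labels. Its labels and exon identifiers were used to choose genes and mark listed parts, and its values were not.

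Counts were summed per gene, or kept per part, and tested with edgeR 4.0.16 (glmQLFTest, diffSpliceDGE) in R 4.3.3, with TMM scaling, at least 10 counts over the libraries and a Benjamini-Hochberg rate of 0.1 over all features. Saline levels used the library totals. Alternatives used DESeq2 1.42.0, including a refit of the model of DEXSeq with its likelihood ratio test. Tables and plots were made in Python 3.11.15 with pandas 2.3.3, numpy 2.4.6, scipy 1.17.1 and matplotlib 3.10.9. The ratio of the alcohol lanes used a pseudocount of 0.1 TMM-scaled CPM. A floor of 3 counts corresponds to 0.143 to 0.195 CPM in these lanes and covers counting error only.

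The genes described singly hold the 2 largest called usage rises and the 2 largest called falls among parts with at least 100 counts, since 0 of the 149 identifiers matched a symbol. The 16 named genes were selected by hand from those that the study names under the same labels. Genes and lists were chosen with earlier results of these data known. The scripts were tested on simulated data.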

Additional observations from a re-analysis of the deposited data

How the results depend on the processing

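The gene-level calls depended most on scaling and on how lanes were counted. The genes called higher (18) became 84 with library size alone, 8 with DESeq2 and 37 with every lane as its own library, and the genes called lower (14) became 3, 6 and 36. With library size less mitochondrial counts 3 were lower. The parts called higher in usage (193 called, less 11 lower) became 306 with every lane as its own library, 114 without a filter, 29 with the trend over distance taken off, 5 with the model of DEXSeq and 83 with that model on all lanes, an alternative chosen after seeing the data. The parts called lower (11) became 35, 3, 18, 11 and 55 in turn, and 6 with library size alone. The cause of these differences was not tested.

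The median gene-level change was 0.36 with library size alone and 0.094 with library size less mitochondrial counts, and -0.05 to 0.03 when 1 alcohol lane was left out. The median usage change was 0.14 with the trend taken off, and 0.40 to 0.49 with 1 alcohol lane left out. The step from segments 1 to 4 to segment 5 was -0.34 with the trend taken off, -0.75 with the model of DEXSeq and -0.74 with it on all lanes, and -0.67 to -0.60 with 1 alcohol lane left out. Its direction was the same in every alternative run. All of these runs used the lanes on which the genes had been picked by usage, so they are no separate evidence of the step. The median saline level was 14.8 over parts of at least 75 bases and 14.9 without combined identifiers, and 13.8 to 14.0 with 1 saline lane left out. With 1 alcohol lane left out, 1 library remained on each side, so counts of calls could not be had. No paired analysis was possible because the lane numbers mark no shared pool and the saline lanes count as 1 library. Depth limits the parts with few counts, where 948 parts were not tested.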
